A study of Mus musculus with 3 samples.

Results

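The Ly6 genes encode small cell-surface proteins of the Ly6/uPAR family, and 5 of them were followed across the classes of spleen cells in a single-cell RNA experiment on mouse dendritic cells. The 5 are Ly6a, Ly6c1, Ly6c2, Ly6d and Ly6e, taken by name from the 31053 genes counted. The group was selected on measured values: Ly6a was already known, from earlier results on these data, to be high in plasmacytoid dendritic cells and raised in other classes with leukemia and with panobinostat. For Ly6a, therefore, levels and fold changes are given as a description with no test. Ly6c1, Ly6c2, Ly6d and Ly6e entered the tests wherever their counts allowed.

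The cells came from spleens of C57BL/6 mice, either bearing leukemia (acute myeloid leukemia, from the series title and the hashtag names) or wild-type (WT), treated for 2 days with panobinostat, an inhibitor of histone deacetylases, or with vehicle. Dendritic cells of the leukemia-bearing mice were enriched on a density gradient, by sorting GFP-negative cells and by magnetic negative selection, and the sources used here do not describe the WT cells separately. Samples were marked with 6 hashtag antibodies and pooled in 1 capture, and 2 surface antibodies, to CD11c and Siglec-H, were counted beside the RNA. The hashtag names give 2 leukemia vehicle, 2 leukemia panobinostat, 1 WT vehicle and 1 WT panobinostat sample, reading D5W as vehicle and LBH as panobinostat. The leukemia line, the dose, the age and the sex of the mice are not given in the sources used here. It is also not stated there if each hashtag marks a different mouse, and p-values then measure only the spread between these 6 samples, which may be technical. Each WT group is 1 sample.

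Of 38717 barcodes, 19165 were kept as cells with a single hashtag, with 1707 to 6771 cells and 13801525 to 50457078 unique molecular identifiers (UMIs) per sample. They formed 25 clusters, of which those with clear markers were named. The plasmacytoid dendritic cell-like (pDC-like) class held 2944 cells (15.4%), with all 13 of its marker genes over 2-fold higher than in other cells and a median Siglec-H antibody count of 460 against 240 to 247 in the other dendritic cell classes. The cDC1-like class, the conventional dendritic cells known for cross-presentation, held 3049 cells with 11 of 12 markers over 2-fold. The cDC2-like class held 3482 cells with 9 of 14, and the mature dendritic cell-like (mature DC-like) class, marked by the migration receptor Ccr7, held 3930 cells with 14 of 14. Clusters making up 18.8% of cells stayed unnamed and are called by their leading genes. In the WT panobinostat sample only 42 pDC-like cells were kept, against 164 to 1170 in the other samples.

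Ly6 proteins are held at the outer membrane by a glycosylphosphatidylinositol anchor and share a fold of loops tied by disulfide bonds. Ly6a, also called Sca-1, is used to sort blood stem cells and is known as an interferon-inducible gene of leukocytes. Ly6c1 and Ly6c2 are neighbouring copies that together give the Ly-6C antigen used to sort monocytes, and Ly-6C is also found on plasmacytoid dendritic cells. Ly6d marks lymphoid progenitors committed to the B lineage and is read in plasmacytoid cells too, whereas Ly6e is a widely expressed interferon-stimulated gene known for its effects on virus entry.

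All 5 genes lie in one stretch of 350 kb on mouse chromosome 15 (GRCm38, chr15:74762056-75111970), among other members of the family. Ly6d (chr15:74762056-74763620) is on the minus strand, Ly6e (chr15:74955051-74959905) on the plus strand, and Ly6a (chr15:74994877-74998031), Ly6c1 (chr15:75044018-75048830) and Ly6c2 (chr15:75108158-75111970) follow on the minus strand. The transcripts of Ly6c1 and Ly6c2 were 97.6% identical over 822 aligned bases, and 98.2% identical in their last 400 bases, where this chemistry reads. Windows of 50 bases there were shared exactly by the pair in 23.4% of Ly6c1's windows and 25.1% of Ly6c2's. A read inside such a shared stretch cannot be given to one copy by its sequence, and how the authors' counting treated it is not given in the sources used here, so the values of both copies are uncertain to that extent. Ly6a shared no 50-base window with either, at 84.8% and 84.0% identity.

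Near-identical transcripts went with promoters that differ more. The 250 bases before the start of both copies are shown because the copies were found in different cells. They are from RefSeq's table for GRCm38.p6, in which 2 of the 5 genes were matched, and Ly6a, Ly6d and Ly6e were not. Capitals mark the longest stretch the pair shares exactly, 20 bases, which ends at position -21 in Ly6c1 and at -46 in Ly6c2, counted back from the start. The Ly6c1 window is chr15:75048838-75049087 and the Ly6c2 window is chr15:75111972-75112221, both on the minus strand and written 5′ to 3′.
Ly6c1: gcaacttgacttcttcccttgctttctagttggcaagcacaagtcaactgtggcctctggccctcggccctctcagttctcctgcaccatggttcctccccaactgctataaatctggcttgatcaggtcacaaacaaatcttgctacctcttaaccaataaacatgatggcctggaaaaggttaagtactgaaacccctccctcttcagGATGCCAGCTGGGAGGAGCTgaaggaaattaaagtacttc
Ly6c2: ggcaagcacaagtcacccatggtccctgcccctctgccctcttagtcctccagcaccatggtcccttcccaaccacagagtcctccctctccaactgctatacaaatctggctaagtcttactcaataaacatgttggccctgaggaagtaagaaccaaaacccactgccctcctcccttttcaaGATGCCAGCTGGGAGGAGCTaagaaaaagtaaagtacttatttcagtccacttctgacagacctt
Over the table's full windows of 300 bases, the pair was 78.2% identical in 266 aligned bases, with 68 gap bases. An interferon-stimulated response element, searched on both strands as GAAA, 2 free bases and GAAA, had no match in either window, against 3.44% of 32851 promoters of that length. A gamma-activated site, searched as TTCNNNGAA, had none either, against 8.30%. The motifs may overlap each other, and no match says only that they are absent from these windows.

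Levels are given as UMIs per 1000000 UMIs of the class (CPM). The chemistry counts 1 end of each transcript, so values are not divided by length, and levels are compared between cells and not between genes. Where a ratio of levels carries an interval, it is an exact 95% interval that covers counting error only. Because all samples shared a capture, RNA free in the suspension is common to all cells, and low levels have to be read against it. Erythroid-like cells, which are not a known source of Ly6d or of the pDC gene Siglech, serve as a reading of that background. Over all samples they held 13.5 CPM of Ly6a, 9.99 CPM of Ly6c2 and 23.1 CPM of Ly6d. Their median of 14061 UMIs per cell was above the 5181.5 of cDC2-like and 4517.5 of mature DC-like cells. A set of 1241 barcodes with few genes held 114 CPM of Ly6a, 125 CPM of Ly6c2 and 263 CPM of Ly6d, from a source that was not tested. The background may be higher in other classes, so levels or shares slightly above the erythroid-like values are not evidence of expression. In bulk sums of this kind fewer positive cells and less RNA per cell cannot be told apart, so shares of cells are given beside them, after thinning each cell to 2000 UMIs.

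Ly6a was highest in pDC-like cells, which held 80.9% of its 44896 UMIs. By sample its level there was 2347 and 2561 CPM in leukemia vehicle, 2107 and 1924 CPM in leukemia panobinostat, 2076 CPM in WT panobinostat and 1790 CPM in WT vehicle. B cell-like cells came next, at 678 to 1050 CPM over 6 samples, and the gap to the pDC-like class was 2.48-fold (2.37 to 2.60). The pDC-like range did not overlap that of any other class or cluster. A cluster of 104 cells led by Igfbp7, Sparc and Cldn5, with 10 markers of endothelium raised, held 614 to 824 CPM in the 3 samples with 20 or more of its cells, a range that overlapped that of the B cell-like class. A cluster of 454 cells led by Chil5, Ly6i and Cd209d held 254 to 786 CPM in 5 samples and overlapped both. NK cell-like cells spread from 36.8 to 359 CPM. Among the conventional and mature classes the pooled order was cDC1-like at 53.8, mature DC-like at 24.5 and cDC2-like at 18.9 CPM. The ranges over samples of the last pair, 16.5 to 41.3 and 15.6 to 21.3 CPM, overlapped. pDC-like cells exceeded cDC1-like cells 39.9-fold (38.3 to 41.6). After thinning, 88.7% of pDC-like, 73.0% of B cell-like, 8.56% of cDC1-like, 4.34% of mature DC-like and 3.72% of cDC2-like cells had a Ly6a UMI, against 2.41% of erythroid-like cells. Before thinning the shares were 94.97%, 85.9%, 37.0%, 10.3%, 8.59% and 12.9%.

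**Figure D1:**
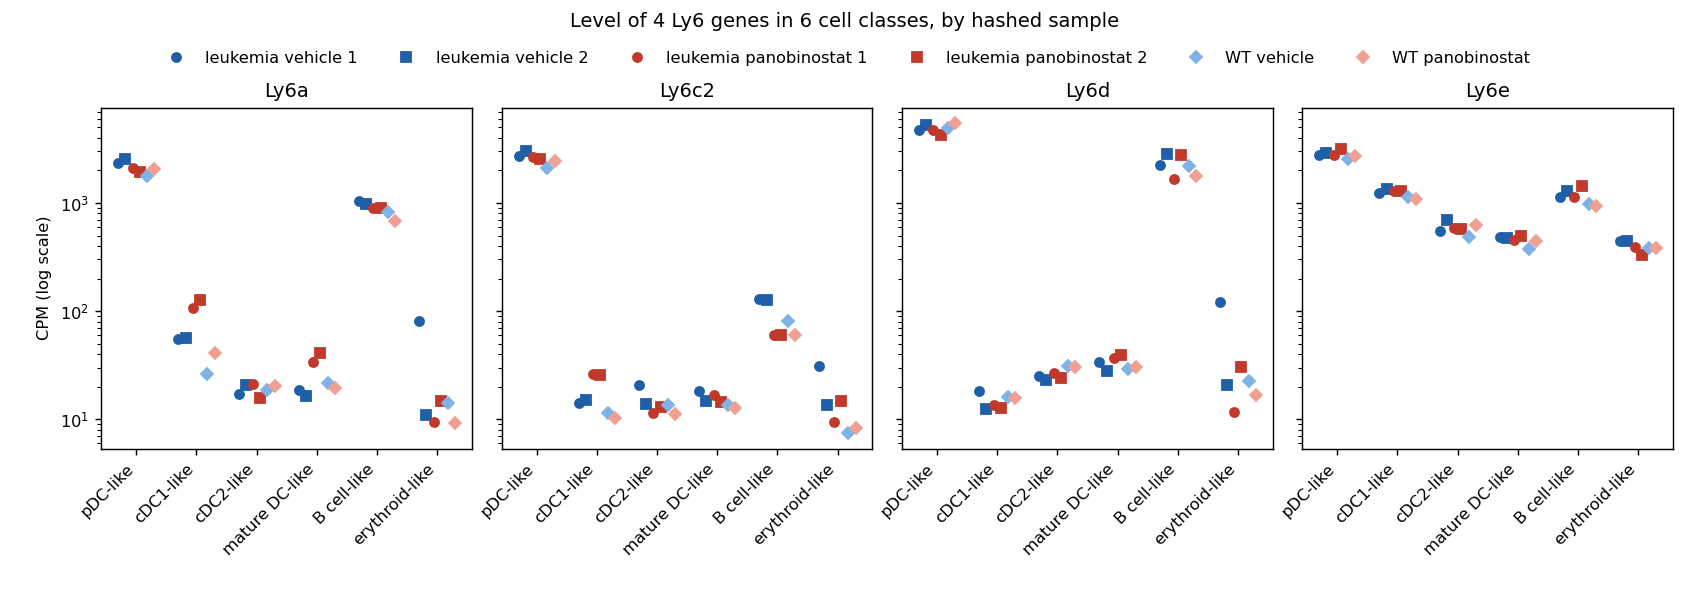
Level of 4 Ly6 genes (CPM, log scale) in 6 named cell classes, with 1 point per hashed sample. Ly6a, Ly6c2 and Ly6d stand above 1000 in every pDC-like sample and below 150 in every cDC1-like, cDC2-like, mature DC-like and erythroid-like sample, whereas Ly6e exceeds 300 in every class shown.

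Ly6c2, the copy of Ly-6C known from monocytes, had 89.2% of its 48577 UMIs in pDC-like cells. Its level there was 2724 and 3003 CPM in leukemia vehicle, 2676 and 2577 CPM in leukemia panobinostat, 2440 CPM in WT panobinostat and 2108 CPM in WT vehicle. All 4 leukemia samples lay above both WT samples. The Chil5 cluster was next, with 650 to 1380 CPM in 5 samples, below every pDC-like sample. It also held 294 CPM of the pDC gene Siglech, against 6.32 to 13.6 CPM in the cDC1-, cDC2- and mature DC-like classes. B cell-like cells held 59.5 to 130 CPM. In the cDC1-, cDC2- and mature DC-like classes the pooled levels were 14.5, 13.2 and 14.5 CPM, with overlapping ranges over samples. Thinned shares of cells with a Ly6c2 UMI were 95.2% for the pDC-like, 2.76% for the cDC1-like, 2.60% for the cDC2-like and 2.87% for the mature DC-like class, against 1.60% for erythroid-like cells, at unthinned shares of 98.4%, 17.0%, 6.95%, 7.56% and 11.6%.

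Ly6c1 was found elsewhere. Of 582 Ly6c1 UMIs, 445 (76.5%) were in the 104 cells of the Igfbp7 cluster, where the level was 1104 CPM in leukemia panobinostat 2, 888 CPM in WT vehicle and 1053 CPM in WT panobinostat, the samples with 20 or more such cells. The same cells held 21.1 CPM of Ly6c2, from 8 UMIs. Markers of endothelium such as Pecam1, Cdh5, Kdr and Plvap were raised in this cluster; the naming rule left it unnamed. Of its 97 cells with more endothelial than stromal marker UMIs, 78.4% had a Ly6c1 UMI. Outside the cluster, 101 of 19061 cells (0.530%) had one. pDC-like cells held 48 Ly6c1 UMIs (2.84 CPM) beside 43353 Ly6c2 UMIs, and 0 of 347 B cell-like cells had a Ly6c1 UMI, which allows a share of cells with a UMI of up to 0.865% and sets no limit on cells expressing the gene. Most UMIs of the near-identical copies were thus counted in different clusters.

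Ly6d, the lymphoid progenitor antigen, had 89.4% of 91252 UMIs in pDC-like cells. Its level by sample was 4733 and 5272 CPM in leukemia vehicle, 4689 and 4249 CPM in leukemia panobinostat, 5482 CPM in WT panobinostat and 4957 CPM in WT vehicle. The leukemia samples and the WT samples overlapped. B cell-like cells held 1671 to 2839 CPM over 6 samples, below every pDC-like sample and above every sample of the remaining classes. NK cell-like cells ranged from 20.2 to 642 CPM, and the Chil5 cluster from 173 to 320 CPM. The cDC1-like, cDC2-like and mature DC-like classes had 15.2, 28.1 and 32.3 CPM, around the 23.1 CPM of erythroid-like cells. In leukemia vehicle 1 the 40 erythroid-like cells stood apart, with 121 CPM of Ly6d, 80.0 CPM of Ly6a and 52.3 CPM of Siglech.

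Ly6e was read in every class, and its 159336 UMIs were spread most evenly: 33.5% were in cDC1-like cells and 29.2% in pDC-like cells. pDC-like cells were again highest, with 2788 and 2877 CPM in leukemia vehicle, 2808 and 3192 CPM in leukemia panobinostat, 2726 CPM in WT panobinostat and 2542 CPM in WT vehicle. Below them came the Igfbp7 cluster (1248 to 1631 CPM), red pulp macrophage-like cells (1377 to 1396 in 2 samples), the Chil5 cluster (1325 to 1540), cDC1-like cells (1098 to 1351), the Lgals3 cluster (1091 to 1461), B cell-like cells (934 to 1427) and NK cell-like cells (839 to 1150). Each of these ranges overlapped that of its neighbours in this order. The range of cDC1-like cells lay below that of red pulp macrophage-like cells, and that of NK cell-like cells below those of the first 3. The cDC2-like class followed at 485 to 701 CPM and the mature DC-like class at 373 to 491 CPM, ranges that overlapped. Erythroid-like cells held 328 to 447 CPM. The mature DC-like class was mixed for Ly6e: its cluster led by Lta held 779 CPM and that led by Il12b, the gene of the shared subunit of interleukin-12 and interleukin-23, held 806 CPM, while those led by Dkk2, Tnfrsf4 and Clu held 238, 191 and 92.04 CPM.

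The proportions of the genes to one another differed between classes. pDC-like cells had 0.445 Ly6a UMIs and 0.531 Ly6c2 UMIs per Ly6d UMI. cDC2-like cells (0.670 and 0.468), mature DC-like cells (0.759 and 0.450) and erythroid-like cells (0.585 and 0.432) were near those proportions, at levels of Siglech between 4.82 and 15.7 CPM in every sample but leukemia vehicle 1 of the erythroid-like class. cDC1-like cells had 3.54 Ly6a and 0.955 Ly6c2 UMIs per Ly6d UMI. B cell-like cells matched pDC-like cells for Ly6a (0.407) but not for Ly6c2 (0.0397), and the Chil5 cluster had 1.60 Ly6a and 3.84 Ly6c2 UMIs per Ly6d UMI. Within the mature DC-like class Ly6d was higher in the clusters led by Gm26917 (88.8 CPM), Lta (72.2 CPM) and AW112010 (55.4 CPM) than in the others (16.7 to 33.6 CPM). In cDC1-like cells the Ly6a to Ly6d ratio by sample was 1.65 in WT vehicle, 2.65 in WT panobinostat, 3.04 and 4.49 in leukemia vehicle, and 7.88 and 9.93 in leukemia panobinostat.

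**Figure D2:**
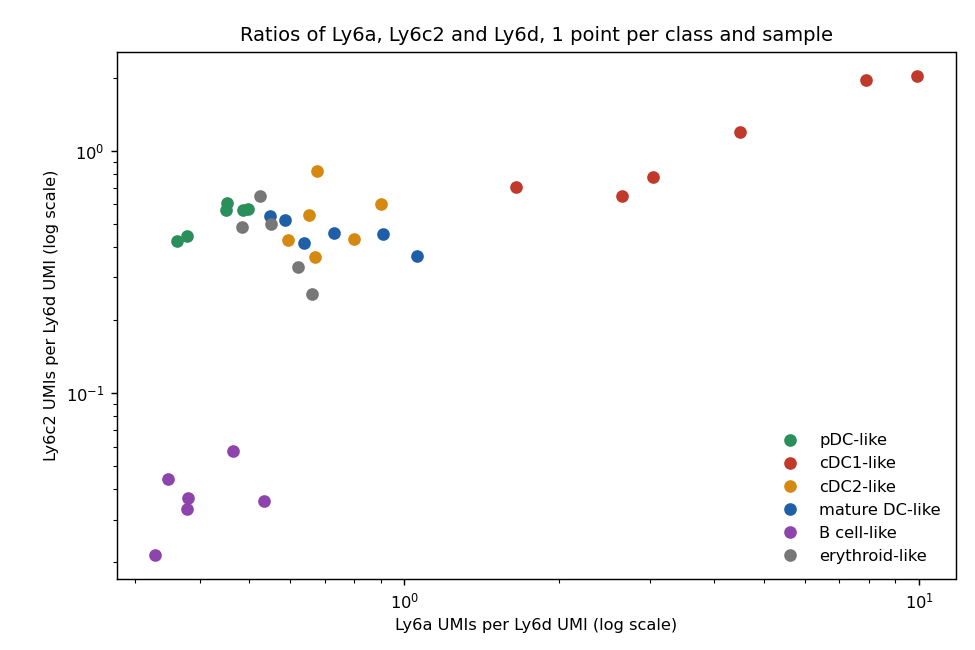
Ly6c2 UMIs per Ly6d UMI against Ly6a UMIs per Ly6d UMI (both log scales), with 1 point per class and hashed sample that had at least 20 cells and 10 Ly6d UMIs. The cDC1-like samples extend to the right, to 9.93, the B cell-like samples lie lowest, at or below 0.0575, and the cDC2-like, mature DC-like and erythroid-like samples lie near the pDC-like samples.

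Inside the pDC-like class the genes were found together in most cells but varied to different degrees. Of 2913 pDC-like cells thinned to 2000 UMIs, 82.9% had a UMI of Ly6a, Ly6c2, Ly6d and Ly6e all, 15.6% had 3 of the 4, and none lacked all. The median cell had 3 Ly6a, 4 Ly6c2, 9 Ly6d and 5 Ly6e UMIs, and the shares with none were 11.3%, 4.84%, 1.89% and 0.652%. Variation beyond counting error, as a coefficient of variation, was 68.5% for Ly6a, 58.8% for Ly6c2, 54.6% for Ly6d and 22.3% for Ly6e. Ly6a had a higher value than Ly6c2 in 5 of 6 samples, the exception being WT panobinostat with 42 cells, where it was 53.2% against 79.8%. Across cells, Pearson's r was 0.30 for Ly6a with Ly6c2, 0.23 for Ly6a with Ly6d and 0.13 for Ly6c2 with Ly6d, and 0.03 to 0.06 for each of them with Ly6e. These are weak correlations of sparse counts from cells that share a capture. A smaller pDC-like cluster of 128 cells, led by Cox6a2, Siglech and Atp1b1, held 1237 CPM of Ly6a, 1642 of Ly6c2 and 3045 of Ly6d, against 2201, 2617 and 4928 CPM in the main cluster of 2816 cells. It made up 11.3% of the class in WT vehicle and 1.88% in leukemia vehicle 1.

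**Figure D3:**
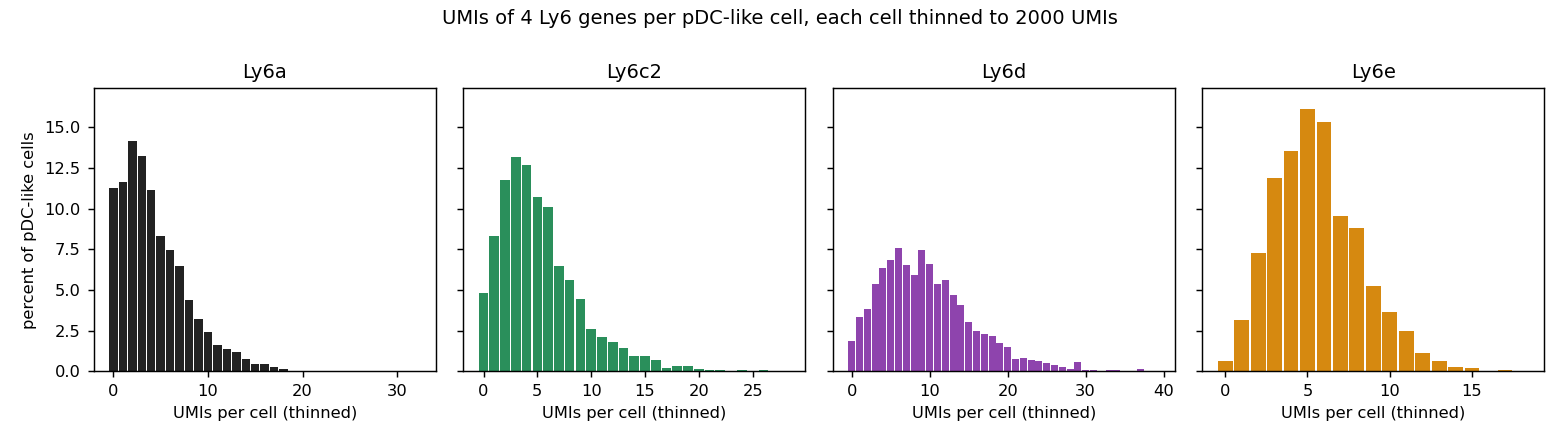
Percent of pDC-like cells by UMIs per cell of 4 Ly6 genes, after thinning each of 2913 cells to 2000 UMIs. The Ly6a bars fall off from a low peak with 11.3% of cells at 0, the Ly6d bars are the widest, with a median of 9, and the Ly6e bars are the most compact.

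The first comparison asked what panobinostat did to these genes, in a fit that also had leukemia as a term, run over all genes of a class. Ly6c2, Ly6d and Ly6e could be tested in all 4 classes, and Ly6c1 fell below the filter on low counts in each of them. None of the 3 passed at an adjusted p of 0.05 in any class (edgeR's quasi-likelihood test with Benjamini-Hochberg adjustment over all genes). None of them had an unadjusted p under 0.05 in the cDC2-like or mature DC-like class, 1 did in the pDC-like class (Ly6e) and 1 in the cDC1-like class (Ly6c2). Of all genes, 610 of 9321 were under that value in the pDC-like class and 1756 of 9819 in the cDC1-like class. In the cDC2-like class 678 of 9530 were, and in the mature DC-like class 1101 of 9495. Over all genes the share called was 0.161% of 9321 in the pDC-like class (0.118% higher, 0.0429% lower) and 4.26% of 9819 in the cDC1-like class (3.06% higher, 1.20% lower). It was 0.178% of 9530 in the cDC2-like class (0.168% higher, 0.0105% lower) and 0.495% of 9495 in the mature DC-like class (0.337% higher, 0.158% lower). Scaled by library size alone, the mature DC-like calls were 20 higher and 46 lower in place of 32 and 15. In pDC-like cells Ly6c2 differed by 0.00 on the log2 scale (SE 0.06), Ly6d by -0.04 (SE 0.05) and Ly6e by 0.11 (SE 0.05, adjusted p 0.742). In cDC1-like cells Ly6e differed by -0.02 (SE 0.06) and Ly6c2 by 0.43 (SE 0.17, adjusted p 0.178). Within the leukemia samples alone the Ly6c2 difference in cDC1-like cells was 0.87 (SE 0.16, adjusted p 0.0147, edgeR's quasi-likelihood test), and it passed there. With either WT sample left out, the panobinostat term rests on the same leukemia samples, so those fits repeat this comparison. Its levels were 26.4 and 25.8 CPM in leukemia panobinostat against 14.1 and 15.04 CPM in leukemia vehicle, 11.3 CPM in WT vehicle and 10.1 CPM in WT panobinostat. The leukemia panobinostat pair stood above the other 4 samples. The summed level of 13 pDC markers in cDC1-like cells, was 84.5 and 104 CPM in that pair and 74.1 to 105 CPM in the other samples, and Siglech ranged from 5.54 to 8.68 CPM. Their part in the result was not tested.

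Ly6a itself differed with panobinostat by class, given here without a test since it was chosen for such values. In cDC1-like cells its level was 107 and 126 CPM in leukemia panobinostat against 54.9 and 56.2 CPM in leukemia vehicle, and 41.2 CPM in WT panobinostat against 26.3 CPM in WT vehicle. Every panobinostat sample was above the vehicle sample or samples of its own disease state, with a log2 fold change of 0.91 (SE 0.10), and none of its 20 alternative fits gave less than 0.81. In mature DC-like cells the log2 fold change was 0.56 (SE 0.21), from 33.6 and 41.3 CPM in leukemia panobinostat against 18.6 and 16.5 CPM in leukemia vehicle. In WT the direction was the other, 19.5 CPM with panobinostat and 21.5 CPM with vehicle. Over 21 alternatives the value ran from 0.01 (cells thinned to 2000 UMIs) to 1.11 (without WT vehicle), with 1.11 also without WT panobinostat and 0.35 without leukemia vehicle 1. Both values of 1.11 rest on the leukemia samples alone. In cDC2-like cells it was 0.12 (SE 0.18), with all samples between 15.6 and 21.3 CPM, and -0.60 to 0.72 over 20 alternatives. In pDC-like cells it was -0.11 (SE 0.07). By thinned share, 16.3% and 17.1% of cDC1-like cells in leukemia panobinostat had a Ly6a UMI, against 12.1% and 8.86% in leukemia vehicle, 6.58% in WT panobinostat and 4.83% in WT vehicle. In mature DC-like cells the thinned share was 3.51% and 4.598% in leukemia panobinostat and 4.22% and 4.07% in leukemia vehicle. It was 4.42% in WT panobinostat and 4.697% in WT vehicle. The higher CPM of leukemia panobinostat in that class thus came without a higher thinned share of positive cells. Before thinning the share was 9.77% and 12.6% in leukemia panobinostat and 8.45% and 8.94% in leukemia vehicle. It was 12.2% in WT panobinostat and 9.76% in WT vehicle.

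**Figure D4:**
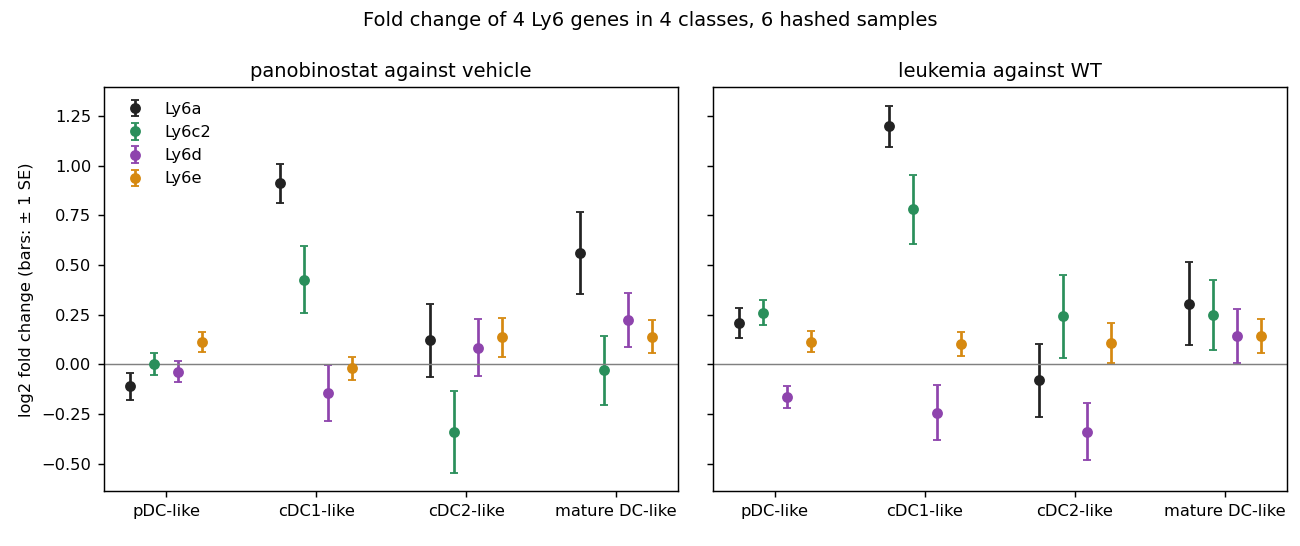
Log2 fold change (points) with 1 standard error on each side (bars) of Ly6a, Ly6c2, Ly6d and Ly6e in 4 classes, for panobinostat against vehicle (left) and leukemia against WT (right), each from 6 hashed samples. Ly6a in cDC1-like cells lies farthest from 0 in both panels, at 0.91 and 1.20, and the Ly6e points lie between -0.02 and 0.14.

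Single clusters gave a finer picture of where Ly6a was raised outside pDC-like cells. In the mature DC-like class, the cluster led by Il12b had 80.5 and 110 CPM in leukemia panobinostat against 23.5 CPM in leukemia vehicle 1, 23.5 CPM in WT vehicle and 21.2 CPM in WT panobinostat. Leukemia vehicle 2 had under 20 cells there. The cluster led by Lta had 22.3 and 18.1 CPM in leukemia panobinostat, within the 6.85 to 38.8 CPM of its other samples. That led by Tnfrsf4 had 20.8 and 20.9 CPM against 12.8 to 19.0 CPM, a gap of under 2 CPM. The unnamed cluster led by Wfdc17, with 10 cDC2 markers raised, including Sirpa, Cd209a and Mgl2, had 167 and 169 CPM in leukemia panobinostat against 53.7 and 36.6 CPM in leukemia vehicle, 36.6 CPM in WT panobinostat and 30.6 CPM in WT vehicle. Its leukemia panobinostat samples stood apart from the other 4 in CPM, while both named cDC2-like clusters, led by Ifitm1 and Saa3, stayed between 15.003 and 25.2 CPM in every sample. Shares of cells in the Wfdc17 cluster differed less. A Ly6a UMI was found in 24.3% and 21.5% of its cells in leukemia panobinostat against 13.3% to 20.5% in the other 4 samples. After thinning the shares were 13.04% and 16.9% against 4.5% to 12.3%. The gap in CPM was thus not matched by a similar gap in the share of positive cells. The unnamed cluster led by Lgals3 had 3 of 12 cDC1 markers raised, Naaa, Gcsam and Cxcl9, and not Xcr1 or Clec9a. Its Ly6a level was 134 and 110 CPM in leukemia panobinostat and 78.5 and 96.3 CPM in leukemia vehicle. In WT panobinostat it was 58.9 CPM and in WT vehicle 38.7 CPM, the same order of groups as both cDC1-like clusters. Ly6e in the Wfdc17 cluster, at 638 and 804 CPM in leukemia panobinostat against 548 to 659 CPM in the other samples, did not separate the groups. In the Lgals3 cluster Ly6e was 1358 to 1461 CPM in the 4 leukemia samples and 1091 and 1108 CPM in the WT samples. That cluster was not fitted, and its leukemia vehicle samples held only 44 and 28 cells. The share of all genes that split these samples in the same way was not counted.

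**Figure D5:**
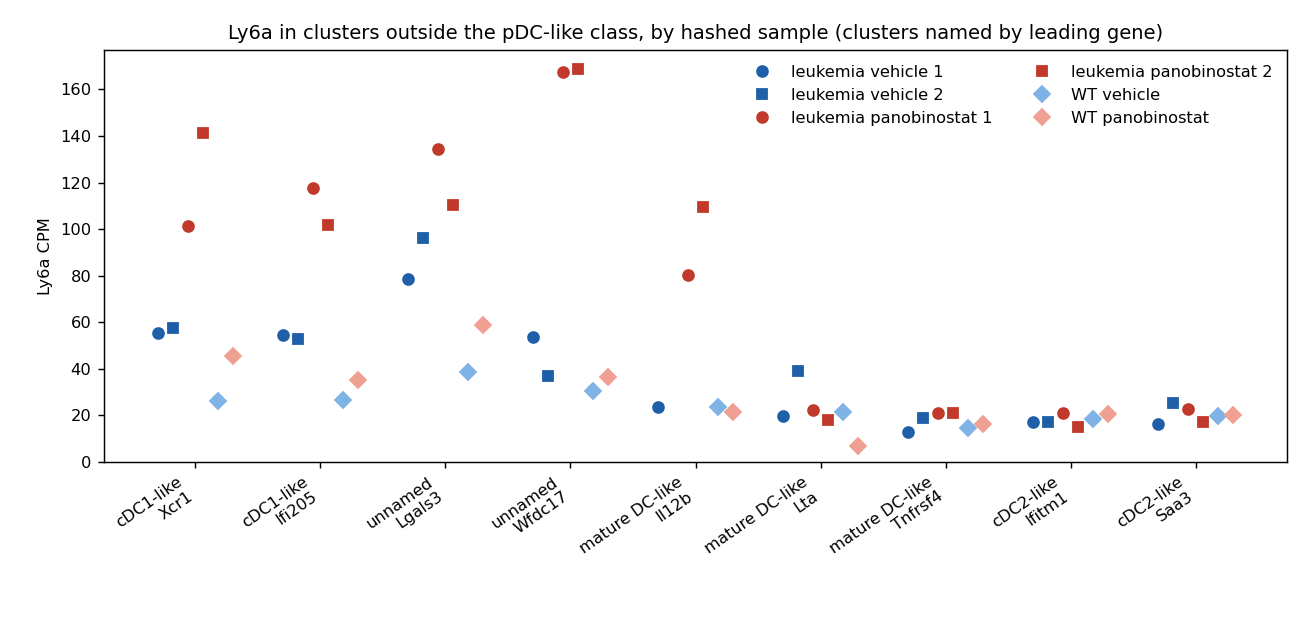
Ly6a level (CPM) in 9 clusters outside the pDC-like class, with 1 point per hashed sample of 20 or more cells. Leukemia panobinostat samples are highest in the clusters led by Xcr1, Ifi205, Lgals3, Wfdc17 and Il12b, reaching 169 in the Wfdc17 cluster, and lie among the other samples in those led by Lta and Saa3.

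The second comparison set leukemia against WT in the same fits, where the share of all genes called was 0.848% in the pDC-like class (0.257% higher, 0.590% lower) and 12.8% in the cDC1-like class (5.64% higher, 7.13% lower). It was 0.199% in the cDC2-like class (all lower) and 2.97% in the mature DC-like class (1.59% higher, 1.38% lower). Scaled by library size alone, the cDC1-like calls were 1235 higher and 431 lower in place of 554 and 700. Of the 3 genes tested, Ly6c2 was called in 2 classes, and Ly6d and Ly6e in none. In pDC-like cells Ly6c2 rose by 0.26 on the log2 scale (SE 0.06, adjusted p 0.0397, edgeR's quasi-likelihood test), and 24 genes in all rose there, 0.257% of those tested. All 4 leukemia samples, at 2577 to 3003 CPM, were above the WT samples at 2108 and 2440 CPM. In the main pDC-like cluster alone they were not: WT panobinostat, at 2553 CPM, was above leukemia panobinostat 2, at 2544 CPM, and the call was lost there (0.22, adjusted p 0.134). The smaller cluster, lower in Ly6c2, made up 11.3% of the class in WT vehicle and 1.88% in leukemia vehicle 1. The call was also lost without WT vehicle (0.09, adjusted p 0.815), without either leukemia vehicle sample (adjusted p 0.233 and 0.351), without leukemia panobinostat 1 (0.0948) and with DESeq2 (0.871), and over all 18 alternatives the adjusted p ran from 2.61e-06 to 0.871. Without WT vehicle the leukemia term compares the panobinostat samples alone. In the main fit of pDC-like cells Ly6d differed by -0.16 (SE 0.06, adjusted p 0.276) and Ly6e by 0.12 (SE 0.05, adjusted p 0.613). Monocyte markers summed to 178 to 284 CPM in the leukemia samples and to 243 and 162 CPM in the WT samples of this class, and their part in the result was not tested.

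In cDC1-like cells Ly6c2 rose with leukemia by 0.78 on the log2 scale (SE 0.17, adjusted p 0.00396, edgeR's quasi-likelihood test), one of 5.64% of genes that rose there. All 4 leukemia samples, at 14.1 to 26.4 CPM, were above the WT samples at 10.1 and 11.3 CPM. The gap was smaller with vehicle, at 14.1 and 15.04 CPM in leukemia against 11.3 CPM in WT. With panobinostat the levels were 26.4 and 25.8 CPM in leukemia against 10.1 CPM in WT. The levels are low: by thinned share 1.25% and 2.95% of cells in leukemia vehicle had a Ly6c2 UMI, 5.33% and 4.76% in leukemia panobinostat, 2.47% in WT panobinostat and 2.20% in WT vehicle, against 1.60% of erythroid-like cells over all samples. Without WT panobinostat the leukemia term compares the vehicle samples alone, and the difference was 0.23, without a call. Thinned to 2000 UMIs it was 0.55 (adjusted p 0.412, edgeR's quasi-likelihood test), also without a call. Over the 18 alternatives the adjusted p ran from 2.99e-06 to 0.492. Ly6d differed by -0.24 (SE 0.14, adjusted p 0.289) and Ly6e by 0.10 (SE 0.06, adjusted p 0.292). In cDC2-like cells the largest difference was that of Ly6d, -0.34 (SE 0.14, adjusted p 0.66), and in mature DC-like cells that of Ly6c2, 0.25 (SE 0.18, adjusted p 0.615).

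Ly6e in mature DC-like cells depended on how the class was drawn. With leukemia it differed by 0.14 (SE 0.09, adjusted p 0.527), from 453 to 491 CPM in leukemia and 373 and 448 CPM in WT. At a clustering resolution of 2 it was 0.71 (SE 0.10, adjusted p 0.000677), and without the cluster led by Lta it was -0.10. The Lta cluster, high in Ly6e, made up 20.7% to 33.2% of the class in the leukemia samples and 6.61% and 3.82% in WT vehicle and WT panobinostat. Within that cluster Ly6e was 724 to 1125 CPM in the leukemia samples and 640 and 713 CPM in the WT samples, and within the Il12b cluster 814 to 982 CPM against 748 and 810 CPM.

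Ly6a again followed the class, without a test. In cDC1-like cells its log2 fold change with leukemia was 1.20 (SE 0.10), and all 4 leukemia samples, at 54.9 to 126 CPM, were above the WT samples at 26.3 and 41.2 CPM. In pDC-like cells it was 0.21 (SE 0.08), and -0.06 without WT vehicle. In mature DC-like cells it was 0.31 (SE 0.21) and in cDC2-like cells -0.08 (SE 0.18), with groups that overlapped. The direction of both turned with the settings: they ran from -1.21 (largest cluster alone) to 0.85 (without WT vehicle) and from -0.17 (without leukemia panobinostat 1) to 1.22 (resolution 2). The mature DC-like value was -0.35 without WT panobinostat, and the cDC2-like value 0.01 without leukemia panobinostat 2. Values without WT vehicle compare the panobinostat samples alone, and those without WT panobinostat the vehicle samples alone. B cell-like cells, which were not fitted, held 890 to 1050 CPM in the leukemia samples and 830 and 678 CPM in WT vehicle and WT panobinostat.

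Whether panobinostat acted differently in leukemia and in WT was put to an interaction term, which called 0.267% of genes in the pDC-like class (0.109% higher, 0.158% lower) and 0.384% in the cDC1-like class (0.187% higher, 0.197% lower). The shares were 0.501% in the cDC2-like class (0.130% higher, 0.371% lower) and 0.351% in the mature DC-like class (0.310% higher, 0.0401% lower). Ly6c2, Ly6d and Ly6e passed in none of the 4 classes, nor did Ly6c1 in pDC-like cells, the one class where it could be fitted (-0.40, SE 1.79). Nearest was Ly6c2 in cDC1-like cells, where the difference between the effects was 1.05 on the log2 scale (SE 0.24, adjusted p 0.0968, edgeR's quasi-likelihood test). Ly6d in pDC-like cells was at -0.25 (SE 0.09, adjusted p 0.546). For Ly6a the same term, given without p, was 1.20 (SE 0.33) in the mature DC-like class, 0.46 (SE 0.17) in the cDC1-like class, -0.13 (SE 0.37) in the cDC2-like class and -0.44 (SE 0.11) in the pDC-like class.

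Of 34 further genes of the Ly6/uPAR family listed, 31 were among the features, 22 had any UMI and 11 had 50 or more in kept cells. Between 1 and 7 of them passed the filter on low counts in each class, and none was called in any of the 8 comparisons. Over all genes 0.161% to 12.8% were called in those comparisons, so no call among so few genes says little. The 7 in pDC-like cells had a median log2 fold change of 0.07 with panobinostat and -0.17 with leukemia, against 0.00 in both for all genes. Their levels, named here after they were seen, followed particular classes. Plaur, the urokinase receptor, was at 118 CPM in pDC-like cells against 0.641 to 3.30 CPM in the other dendritic cell classes, and Lynx1, a modulator of nicotinic receptors, at 55.1 CPM against 0.398 to 0.529. Ly6k, which lies between Ly6d and Ly6e, was at 82.2 CPM in B cell-like and 40.4 CPM in pDC-like cells. Ly6i, between Ly6e and Ly6a, had 50.1% of its 489 UMIs in the Chil5 cluster, the complement regulator Cd59a reached 304 CPM in erythroid-like cells, and 97.6% of the 42 UMIs of Gpihbp1, which carries lipoprotein lipase across capillary walls, were in the Igfbp7 cluster.

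Interferon-stimulated genes are the set to which Ly6a and Ly6e are usually counted, and a list of them was read in the same fits. With leukemia, 26 of 41 tested rose in cDC1-like cells and none fell, with a median log2 fold change of 0.79 against 0.00 over all genes, where 5.64% of all genes rose and 7.13% fell. Among them were Isg15, a ubiquitin-like modifier, at 1.14 (adjusted p 5.15e-06), Ifi27l2a at 1.07 (adjusted p 1.25e-07), Irf7 at 0.83 (adjusted p 3.31e-05) and Bst2 at 0.30 (adjusted p 0.00824), by edgeR's quasi-likelihood test. Ifit3 was at 1.42 (adjusted p 0.0773). In mature DC-like cells 7 of 42 rose, in pDC-like cells 3 of 44, among them Ifi27l2a and Ifi44, and in cDC2-like cells none of 47 rose and Ifi205 fell. Over all genes 1.59%, 0.257% and none rose in these 3 classes, and 0.199% fell in the last. With panobinostat, 8 of 41 were called in cDC1-like cells, 6 higher and 2 lower, with a median of 0.00, where 3.06% of all genes were higher and 1.20% lower. In the pDC-, cDC2- and mature DC-like classes 0 of 44, 1 of 47 and 1 of 42 were called, against 0.161%, 0.178% and 0.495% of all genes. Ly6a's difference with panobinostat in cDC1-like cells, 0.91, stood beside a list median of 0.00, and its difference with leukemia, 1.20, beside 0.79. A link between Ly6a and the list was not tested. Among the list, Ifi27l2a was higher in cDC1-like cells with both, by 0.53 (adjusted p 0.00149) with panobinostat.

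The genes with the most similar pattern were read from Pearson's r of log2(CPM + 1) over 24 sums, 4 dendritic cell classes in 6 samples, among 4892 genes with a mean of 20 CPM or more. These sums share the capture, and r mostly follows the gap between pDC-like cells and the rest. For Ly6a they included Mvb12a (0.985), the chemokine receptor Ccr9 (0.982), Paqr5 (0.981) and Tmed3 (0.981). Ly6c2 was most like Bst2 (0.997), the tetherin gene that marks pDCs, and Dntt (0.992). Ly6d was most like Gnas (0.996), Siglech (0.995) and Cox6a2 (0.995), and Ly6e like Tmed10 (0.989), Spcs2 (0.983) and Tmem258 (0.983), whose levels also stepped down from pDC-like through cDC1-like to cDC2-like and mature DC-like cells. Mvb12a, closest to Ly6a, had 490, 124, 64.8 and 77.2 CPM in pDC-like, cDC1-like, cDC2-like and mature DC-like cells, so that its cDC1-like level too was above those of the cDC2-like and mature DC-like classes. Ly6c1, whose mean was under 20 CPM, was most like Il11ra1 (0.910), Sec61a1 (0.891) and Josd2 (0.886).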

How the data were processed

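The deposited matrix holds counts (UMIs per feature and barcode) made by the authors with Cell Ranger 3.1.0, per the file headers. The submitters' processing notes also name Seurat 3.1.0 and the builds mm10 and GRCm38. The 3 libraries are RNA, hashtags and antibody tags of 1 capture. A hashtag was positive above the 99% point of a fitted negative binomial background, and barcodes with exactly 1 were used, 22521 (58.2%) of 38717. Kept cells had 500 genes, at most 10% mitochondrial UMIs and a simulated-doublet score under 0.5. That score marked 9.94% of single-tag and 40.9% of several-tag barcodes. A further 6 cells with over 1% acinar UMIs were left out. Clusters (scanpy 1.11.5, 2000 variable genes without the listed genes, 30 components, Leiden resolution 1) were named from 3 or more raised markers by a rule set after the data were seen. UMI sums per class and hashed sample were fitted with edgeR 4.0.16 (disease and treatment, TMM, filterByExpr, 3 residual degrees of freedom) and called at an adjusted p of 0.05. The fits were tested on simulated data.

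Positions are from the GRCm38 annotation, matched by gene ID. The members and gene lists were chosen with earlier results of these data known. Named are the 5 members, further family genes that were called or are marked as named after being seen, fixed examples of the interferon list, and the 5 (Ly6a) or 3 genes most alike. Some genes that this rule names are not reported here. Alternatives were DESeq2 1.42.0, other scaling, no filter, each sample left out, leukemia alone, other hashtag, doublet, mitochondrial and clustering settings, and thinning.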

Additional observations from a re-analysis of the deposited data

Results flagged for a closer look

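Ly6a in pDC-like cells was marked by a rule on the interaction term. The panobinostat effect in leukemia minus that in WT was -0.44 on the log2 scale (SE 0.11). Its level went from 2347 and 2561 CPM with vehicle to 2107 and 1924 CPM with panobinostat in leukemia, and from 1790 to 2076 CPM in WT, where the panobinostat sample held 42 pDC-like cells. No p is given, since Ly6a was chosen for its values in these contrasts, and for the same reason the mark is no evidence of a difference. Groups held 1 or 2 samples each, too few to look for samples that stand apart from their group.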

How the results depend on the processing

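Among 460 alternative values of the tested genes, 440 kept their side of the threshold, 9 lost a call, 11 gained one and none changed sign with a call, although 56 uncalled values changed sign. The count of tested genes called with leukemia in pDC-like cells, 1 in the main analysis, was 0 with DESeq2, 0 with at most 5% mitochondrial UMIs, 0 in the largest cluster alone (chosen after seeing the data), and 0 to 1 when 1 sample was left out. In cDC1-like cells it was 1, 2 with library size alone (Ly6e added), 0 when thinned to 2000 UMIs, and 0 to 1 with 1 sample left out. In mature DC-like cells it was 0, and 1 (Ly6e) at a doublet threshold of 0.3, at 5% mitochondrial UMIs, at resolution 2, with the listed genes used in clustering and when thinned. With panobinostat in cDC1-like cells it was 0, and 1 (Ly6c2) in the leukemia samples alone, 1 with the replicate block there, and 0 to 1 with 1 sample left out. Leaving out a WT sample there repeats the comparison within the leukemia samples. Ly6a with leukemia in pDC-like cells ran from -0.059 (reversed, without WT vehicle) to 0.42 (without WT panobinostat) with 1 sample left out. Ly6d with leukemia there was called without WT vehicle (-0.31, adjusted p 0.0104). Without WT vehicle the leukemia term compares the panobinostat samples alone, and without WT panobinostat the vehicle samples alone. These fits therefore ask a different question from the main fit. The cause of the other changes was not tested.

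The hashtag numbers were not taken as pairing: over the leukemia samples, same-numbered deviations correlated at 0.03, -0.04, 0.06 and 0.10 in the pDC-like, cDC1-like, cDC2-like and mature DC-like classes. A replicate block on the leukemia samples called 97, 442, 194 and 208 genes with panobinostat against 64, 169, 106 and 40 without it.

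Counts of called genes moved with the settings. Over all alternatives, each sample left out included, those with panobinostat ran from 2 to 97 in pDC-like, 57 to 614 in cDC1-like, 1 to 194 in cDC2-like and 1 to 262 in mature DC-like cells, against 15, 418, 17 and 47. Those with leukemia ran from 19 to 135, 410 to 1666, 0 to 141 and 2 to 505, against 79, 1254, 19 and 282; the 135 and 141 are without WT panobinostat and the 0 without leukemia vehicle 1 (edgeR, with 545 genes at an unadjusted p under 0.05). At resolution 2 the cDC2-like class held 73.3 CPM of Ly6a and 127 of Ly6c2. Of the genes most alike, the pseudocount of 10 kept 3 of 5 for Ly6a, 2 of 3 for Ly6c2 and Ly6d, and 1 of 3 for Ly6e and Ly6c1.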
